A study of Mus musculus with 10 samples.

Results

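The genes described here are 37 that build and guard the folding compartment of the secretory pathway: chaperones, disulfide isomerases and oxidases, the translocon, signal peptidase, and the sensors and effectors of the unfolded protein response. They were taken by name from a list that was drawn up with earlier results of these data known. All 37 were found in the 57010 genes of the count table, and all 37 passed the filter on low counts. Poly(A) RNA of whole mammary tumours was sequenced from untreated mice that all carry the MMTV-PyMT transgene, in which a mammary tumour virus promoter drives the polyoma virus middle T oncogene in mammary epithelium. The 5 knockout tumours are PyMT; RHBDL4 -/- and the 5 wild-type tumours PyMT; RHBDL4 +/+, all taken 5 weeks after tumour onset. The labels give no age or strain and do not say how the allele was made. Rhbdd1 encodes RHBDL4, a protease of the rhomboid family that sits in the membrane of the endoplasmic reticulum (ER), and the design asks how tumour transcripts differ without it.

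Secreted and membrane proteins enter the ER through the Sec61 channel, lose their signal peptide to signal peptidase, and fold with the help of BiP (Hspa5), GRP94 (Hsp90b1), the lectin chaperones and the protein disulfide isomerases. When unfolded proteins build up, the sensors IRE1 (Ern1), PERK (Eif2ak3) and ATF6 switch on a response: IRE1 splices Xbp1 mRNA, PERK phosphorylates the translation factor eIF2 alpha, and ATF6 is cut to release a transcription factor. ATF6 and spliced XBP1 raise the chaperone genes through a promoter element, the ER stress response element (ERSE). Secretory epithelium such as that of the mammary gland carries much of this machinery.

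The ERSE is shown because it ties the chaperone members to the sensor members in sequence. It was searched as CCAAT, any 9 bases and CCACG, on both strands, in RefSeq promoter windows of 300 bases (250 before to 50 after the gene start, build GRCm38.p6), which were given for 30 of the 37 members. An ERSE was found in 8 of these 30, or 26.7%, against 37 of 27025 genes in the table, or 0.137%. The windows below read 5′ to 3′ along the gene, with the fixed letters of the element in capitals. Where they read CGTGG and then ATTGG the element lies on the opposite strand.
Hspa5, chr2:34772013-34772055: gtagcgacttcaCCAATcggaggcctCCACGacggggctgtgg
Hsp90b1, chr10:86705626-86705668: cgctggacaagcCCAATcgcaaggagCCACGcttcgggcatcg
Hsp90b1, chr10:86705521-86705563: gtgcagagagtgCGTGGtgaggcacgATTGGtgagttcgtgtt
Dnajc3, chr14:118937815-118937857: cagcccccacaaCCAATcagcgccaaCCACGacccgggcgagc
Calr, chr8:84847063-84847105: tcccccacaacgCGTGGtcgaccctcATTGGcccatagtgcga
Canx, chr11:50325788-50325830: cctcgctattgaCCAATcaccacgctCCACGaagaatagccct
Pdia6, chr12:17266479-17266521: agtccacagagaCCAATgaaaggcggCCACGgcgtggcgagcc
Creld2, chr15:88819508-88819550: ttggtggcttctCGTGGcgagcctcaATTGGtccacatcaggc
Ero1b, chr13:12565670-12565712: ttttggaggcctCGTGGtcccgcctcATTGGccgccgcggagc

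Hsp90b1, Calr and Canx lie on the minus strand of the chromosome and the other 5 genes on the plus strand. The element lay between 212 bases (Hsp90b1) and 47 bases (Hspa5) before the start. Hsp90b1 was the only member with a second match. Of the related motifs searched on both strands, ERSE-II (ATTGG, any 1 base and CCACG) was found in Dnajb11 alone among the members, just after its start, against 0.0444% of all genes. TGACGTGG, the core of an element bound by XBP1, was found in Txndc5 and Txndc11, against 0.714% of all genes. These are matches of letters only. No promoter of a member held more than 1 of the 3 motifs.

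The libraries held 25.7 to 43.3 M counts. Rhbdd1 served as a check of the labels: it stood at 22.3, 15.1, 17.3, 13.2 and 16.8 CPM in knockout replicates 1 to 5 and at 45.4, 38.6, 33.7, 33.5 and 25.0 CPM in wild-type replicates 1 to 5, with no overlap. Its log2 fold change, knockout over wild type, was -1.05 ± 0.20 (SE, edgeR adjusted p = 0.669) with all libraries and -1.14 ± 0.16 (adjusted p = 0.113) without wild-type replicate 5, and DESeq2 gave an adjusted p of 0.0021 with all libraries. CPM are counts per 1e+06 of the library size after TMM scaling, a scaling that equalises most genes between libraries. Wild-type replicate 5 stood apart in its tissue: its luminal epithelial markers took 0.00719% of counts against 0.451% to 0.749% in the other 9 libraries, and its skeletal muscle markers 7.43% against at most 0.141%. Adipocyte markers took 0.565% of its counts against at most 0.158%, endothelial markers 0.0416% against 0.00579% to 0.0258%, and macrophage markers 0.0489% against 0.0204% to 0.0462%. None of the 9 luminal markers was at 0 counts in any library. Each result is therefore given for all 10 libraries and without wild-type replicate 5. In whole tissue, fewer cells of a type and less RNA per cell cannot be told apart. Each library has its own batch label, so batch and group cannot be told apart, and since the labels do not say that the libraries come from separate animals, p-values cover the sample-to-sample spread alone, which may be technical.

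For no member did the difference between knockout and wild-type tumours pass the test against the spread between replicates. With all 10 libraries, 0 members were called by edgeR's quasi-likelihood test at a Benjamini-Hochberg adjusted p under 0.05, where 0% of 18577 genes were called. Without wild-type replicate 5, 0 members were again called, where 0.0105% of 19016 genes were. This test did not call Rhbdd1 itself in either comparison, so the lack of calls does not show that the members are unchanged. At an unadjusted p under 0.05 there was 1 member with all libraries, higher in knockout, where 7% of all genes passed, 2.56% as higher and 4.44% as lower. Without wild-type replicate 5 there were 5 members (2 higher, 3 lower in knockout), where 11.6% of all genes passed, 5.74% as higher and 5.85% as lower. The groups did not overlap for 0 members with all libraries, where they did not for 1.99% of all genes (0.807% higher and 1.18% lower in knockout). Without wild-type replicate 5 they did not for 1 member, lower in knockout, where they did not for 5.44% of all genes (2% higher and 3.44% lower). DESeq2 and limma-voom with sample quality weights also called 0 members in either comparison, while DESeq2 called 0.154% and 1.66% of genes and limma-voom 0.0915% and 0.747%.

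The median log2 fold change of the members, knockout over wild type, was 0.11 with all libraries and 0.01 without wild-type replicate 5, beside medians of -0.06 and 0.03 over all genes tested. Of the 37 members, 26 had a higher fitted level in knockout with all libraries and 19 without that replicate, while 43.8% and 53.2% of all genes did. There were 7 members that lay above 0 with it and below 0 without it. The 95% interval of the fold change lay within 2-fold in either direction for 33 members with all libraries and for 36 without wild-type replicate 5, Ero1a being the exception there. It lay within 1.5-fold for 12 and for 25 members. Over all genes it lay within 2-fold for 9123 of 18577 and 11650 of 19016, and within 1.5-fold for 3707 and 6310.

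**Figure D1:**
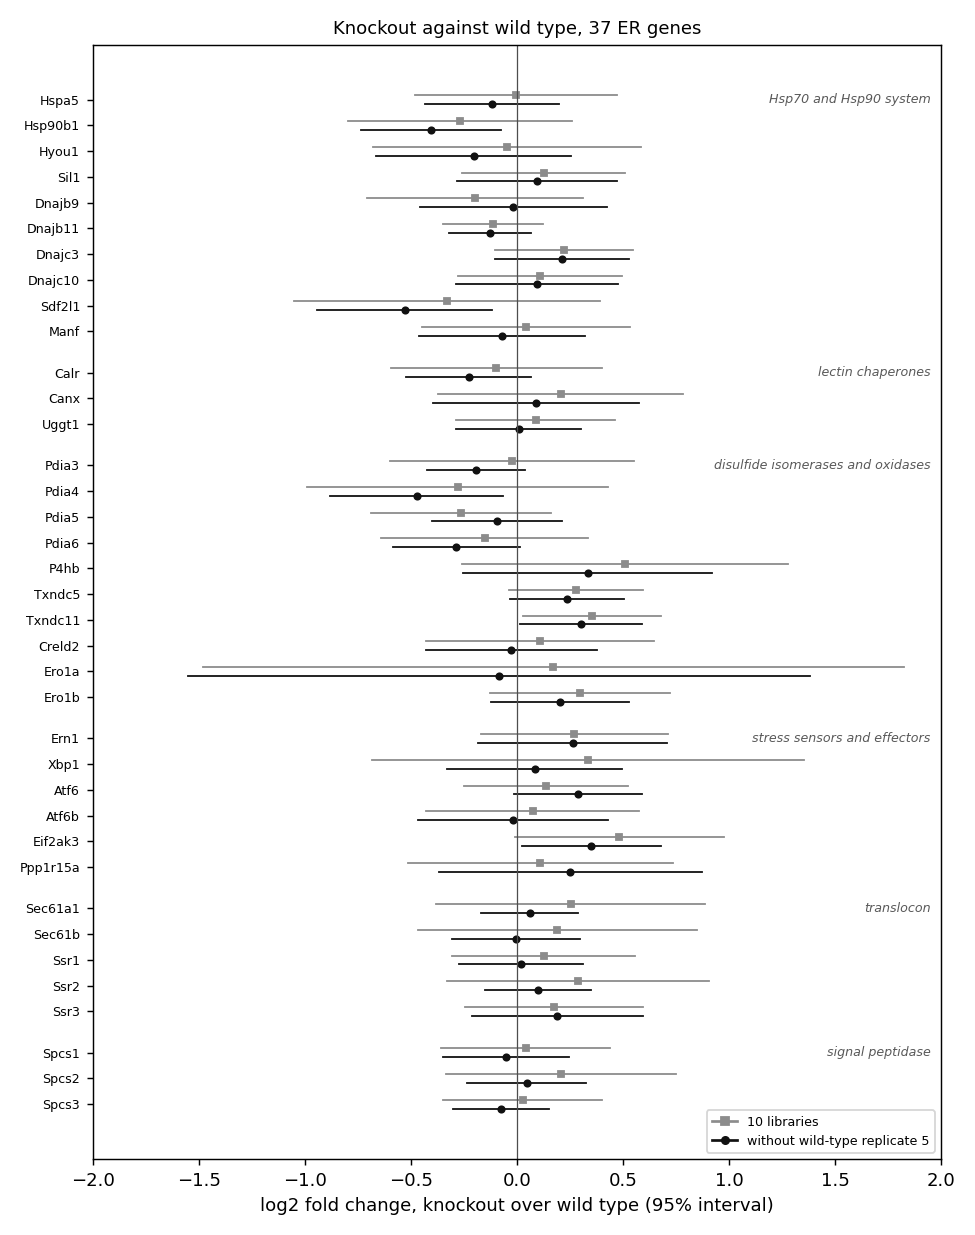
Log2 fold change of each of the 37 members, knockout over wild type, with its 95% interval from edgeR's quasi-likelihood fit, for all 10 libraries (grey squares) and without wild-type replicate 5 (black circles), grouped by class. Without that replicate the interval is narrower for every member but Ern1, and the interval of Ero1a is by far the widest, from -1.55 to 1.38.

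The Hsp70 and Hsp90 system comprises BiP, GRP94, their exchange factors and their J-domain partners. Of its 10 members 7 had a lower fitted level in knockout without wild-type replicate 5 and 6 with it, with medians of -0.09 and -0.03, and 0 were called in either comparison. Hspa5, which encodes BiP, the main Hsp70 of the ER, stood at 1151, 1217, 1351, 1024 and 970.3 CPM in knockout replicates 1 to 5. In wild-type replicates 1 to 5 it stood at 1419.7, 999, 1179.6, 1418 and 720.4 CPM. The groups overlapped, and the log2 fold change was -0.01 ± 0.21 (SE) with all libraries and -0.12 ± 0.14 without wild-type replicate 5, with a 95% interval of -0.43 to 0.20 (edgeR adjusted p = 0.770).

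Hsp90b1, which encodes GRP94, the Hsp90 of the ER, stood at 608, 651, 549, 417 and 611 CPM in knockout replicates 1 to 5 and at 753, 647, 737, 905 and 369 CPM in wild-type replicates 1 to 5. Wild-type replicate 5 lay below every knockout library, and wild-type replicate 2 lay just below knockout replicate 2. Its log2 fold change was -0.27 ± 0.24 with all libraries and -0.41 ± 0.15 without wild-type replicate 5 (interval -0.74 to -0.08, unadjusted p = 0.0210, edgeR adjusted p = 0.357). Sdf2l1, a partner of the J proteins that serve BiP, gave 40.7, 51.1, 30.5, 34.1 and 33.6 CPM in knockout, against 53.7, 41.6, 59.9, 66.6 and 16.7 CPM in wild-type replicates. Knockout replicate 2 lay above wild-type replicate 2, so the groups overlapped here too. The log2 fold change of Sdf2l1 without wild-type replicate 5 was -0.53 ± 0.18 (unadjusted p = 0.0167, edgeR adjusted p = 0.342), the largest in size of the 37 members in that fit.

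Dnajc3 encodes p58IPK, a J protein. Its levels were 195, 175, 162, 151 and 175 CPM in knockout, against 133, 122, 151, 192 and 138 CPM in wild-type replicates. Wild-type replicates 3 and 4 reached the knockout range and the other 3 lay below it, and the fold change of 0.21 ± 0.14 without wild-type replicate 5 did not pass (edgeR adjusted p = 0.581). Among the other members of the class, Hyou1 and Sil1 encode exchange factors for BiP, Dnajb9, Dnajb11 and Dnajc10 encode J proteins, and Manf encodes a secreted factor that is retained with BiP. Their log2 fold changes in that fit ran from -0.20 (Hyou1) to 0.09 (Sil1), and none passed.

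The lectin chaperones hold glycoproteins in the ER until they fold. Calr, which encodes soluble calreticulin, stood at 1229.8, 1327, 1052, 1015 and 1247 CPM in knockout and at 1468, 1092, 1446, 1552 and 726 CPM in wild-type replicates. Wild-type replicates 1, 3 and 4 lay above all knockout libraries, replicates 2 and 5 did not, and the log2 fold change without replicate 5 was -0.23 ± 0.13 (edgeR adjusted p = 0.530). Canx, which encodes membrane-bound calnexin, stood at 694, 493, 493, 312 and 722 CPM in knockout and at 538, 539.7, 467, 518 and 291 CPM in wild-type replicates. Knockout replicates 1 and 5 lay above wild-type replicates 1 to 4, knockout replicate 4 lay below them and the others among them, with coefficients of variation of 30.8% in knockout and 6.06% in wild type without replicate 5. Uggt1, the glucosyltransferase that returns unfolded glycoproteins to them, gave 120.5, 86.2, 103, 78.2 and 114 CPM in knockout, against 109, 102, 93.5, 99.7 and 68.1 CPM in wild-type replicates, a log2 fold change of 0.01 ± 0.13 without replicate 5.

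Disulfide isomerases and oxidases split in both directions, with 4 of 10 higher and 6 lower in knockout without wild-type replicate 5, and 0 called. Pdia4, which encodes the isomerase ERp72 was the 1 member whose groups did not overlap in that comparison. It stood at 248, 244, 167, 141 and 244 CPM in knockout and at 321, 258, 275, 318 and 94.0 CPM in wild-type replicates. The closest libraries were knockout replicate 1 and wild-type replicate 2, and wild-type replicate 5 lay below all others. Its log2 fold change was -0.28 ± 0.32 with all libraries and -0.47 ± 0.18 without wild-type replicate 5 (unadjusted p = 0.0271, edgeR adjusted p = 0.376).

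Txndc11, a thioredoxin-domain protein of the ER membrane, was the member at an unadjusted p under 0.05 in both comparisons. It stood at 48.3, 42.6, 56.9, 58.1 and 45.8 CPM in knockout and at 36.97, 37.4, 46.1, 44.6 and 31.6 CPM in wild-type replicates. Knockout replicates 2 and 5 lay within the range of the wild-type libraries and the other 3 above it. The log2 fold change was 0.36 ± 0.15 with all libraries (unadjusted p = 0.0350, edgeR adjusted p = 0.669) and 0.30 ± 0.13 without wild-type replicate 5 (adjusted p = 0.413). Pdia6, which encodes the isomerase P5, gave 370.4, 335, 302, 296 and 323 CPM in knockout, against 439, 302, 399.8, 462 and 203 CPM in wild-type replicates. Wild-type replicates 1, 3 and 4 were again the high libraries, and the log2 fold change of -0.28 ± 0.13 did not pass (edgeR adjusted p = 0.453).

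The remaining isomerases and oxidases showed no call. Pdia3, the isomerase ERp57 that works with the lectin chaperones, Pdia5 and Creld2 had log2 fold changes of -0.19, -0.09 and -0.03 without wild-type replicate 5. P4hb, the founding disulfide isomerase, Txndc5 and Ero1b, an oxidase that recharges isomerases, had 0.33, 0.24 and 0.20. Ero1a, the other such oxidase and a gene known to respond to low oxygen, had the widest spread of the 37 members. It ranged from 52.2 to 480 CPM in knockout, where replicate 3 was the high library, and from 24.4 to 306 CPM in wild type, where replicates 1 and 2 were high. Between the highest and lowest of the 9 libraries it differed 9.16-fold, beside 1.28-fold for Dnajb11, the steadiest member. Its group difference of -0.08 ± 0.65 had an interval from -1.55 to 1.38. That interval takes in a 2-fold change in either direction, so a change of that size was not excluded.

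**Figure D2:**
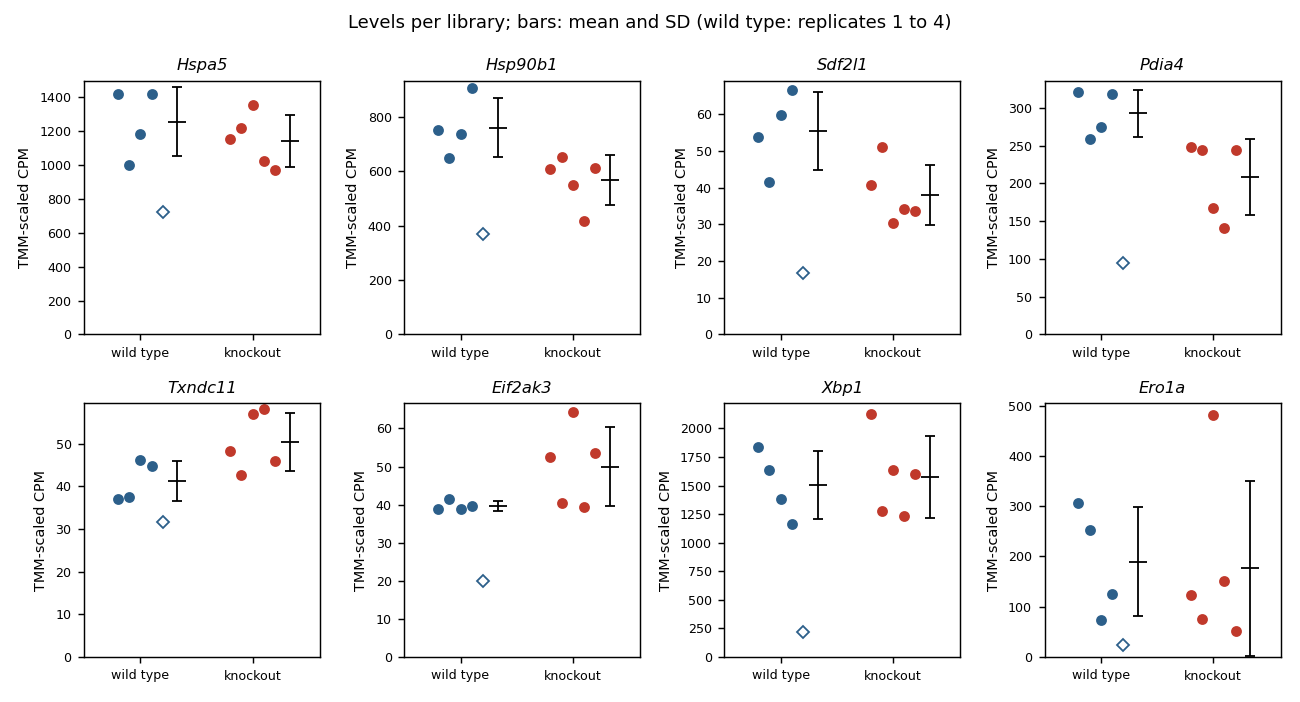
TMM-scaled CPM (y axis) in every library for 8 members, with wild-type replicate 5 as an open diamond and bars for the mean and SD of the 5 knockout libraries and of wild-type replicates 1 to 4. Pdia4 has no overlap among the filled points, Eif2ak3 has a tight wild-type group with knockout replicates 1, 3 and 5 above it, and Ero1a is spread most.

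The sensors and effectors were the class with the largest median, 0.26 without wild-type replicate 5 (5 of 6 higher in knockout) and 0.20 with all libraries (6 of 6 higher), and 0 were called. Eif2ak3, which encodes PERK, stood at 52.4, 40.4, 64.4, 39.3 and 53.5 CPM in knockout and at 38.9, 41.6, 38.7, 39.5 and 20.02 CPM in wild-type replicates. Knockout replicates 1, 3 and 5 lay above every wild-type library, and knockout replicates 2 and 4 lay among them. The log2 fold change was 0.48 ± 0.22 with all libraries (edgeR adjusted p = 0.669) and 0.35 ± 0.15 without wild-type replicate 5 (interval 0.02 to 0.68, unadjusted p = 0.0388, adjusted p = 0.411). Atf6, the sensor cut in the Golgi, stood at 54.2, 43.6, 66.5, 43.5 and 50.9 CPM in knockout and at 41.0, 47.5, 40.0, 43.1 and 63.9 CPM in wild-type replicates. The same knockout libraries, 1, 3 and 5, were the high ones, wild-type replicate 5 lay near the top, and the fold change of 0.29 ± 0.13 without that replicate did not pass (edgeR adjusted p = 0.455).

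Ern1, which encodes IRE1 alpha, gave 35.9, 25.7, 26.3, 18.1 and 33.3 CPM in knockout, against 29.3, 21.6, 22.1, 21.0 and 21.6 CPM in wild-type replicates. Knockout replicate 4 was the lowest library and knockout replicate 1 the highest, and the log2 fold change was 0.26 ± 0.20 without wild-type replicate 5 (edgeR adjusted p = 0.632). Xbp1, the transcription factor whose mRNA IRE1 splices, stood at 2124, 1279.7, 1634, 1231 and 1603 CPM in knockout and at 1839, 1635, 1384, 1160.3 and 214 CPM in wild-type replicates. Wild-type replicate 5 held 13.4% of the median of the other 9 libraries, the lowest share of any member. Without it the log2 fold change of Xbp1 was 0.08 ± 0.18 in place of 0.34 ± 0.46. Counts per gene do not separate spliced from unspliced Xbp1. Atf6b, a relative of Atf6, and Ppp1r15a, which encodes the GADD34 subunit that reverses eIF2 alpha phosphorylation, had log2 fold changes of -0.02 ± 0.20 and 0.25 ± 0.28 without wild-type replicate 5.

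The translocon members are the Sec61 channel subunits Sec61a1 and Sec61b and the TRAP subunits Ssr1, Ssr2 and Ssr3, which sit beside the channel. All 5 had a higher fitted level in knockout with all libraries, with a median of 0.19. Without wild-type replicate 5 the median was 0.06, with 4 higher and 1 lower, and 0 were called in either comparison. Sec61a1 stood at 197, 149, 193, 159 and 185 CPM in knockout and at 184, 175, 166, 163 and 55.0 CPM in wild-type replicates. Without the low wild-type library the groups cover much the same range, and its interval of -0.17 to 0.29 lay within 1.5-fold. Ssr2 gave 336, 252, 327, 304 and 301 CPM in knockout, against 309, 243, 297, 299 and 98.2 CPM in wild-type replicates. Replicate 2 of each group was low beside its fellows, leaving wild-type replicate 5 aside. Ssr3 gave 612, 361, 666, 411 and 466 CPM in knockout, against 489, 410.3, 419.6, 465 and 443 CPM in wild-type replicates, and here wild-type replicate 5 lay with the others (log2 fold change 0.19 ± 0.18 without it, edgeR adjusted p = 0.702).

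Signal peptidase members, the small subunits Spcs1, Spcs2 and Spcs3 that stand beside the catalytic ones, had log2 fold changes of -0.05, 0.05 and -0.08 without wild-type replicate 5, and each interval lay within 1.5-fold. Spcs1 gave 175, 162, 205, 177 and 152 CPM in knockout, against 187, 145, 181, 218 and 116 CPM in wild-type replicates. Spcs2 gave 291, 225, 251, 202 and 287 CPM in knockout, against 249, 224, 238, 273 and 104 CPM in wild-type replicates. For Spcs3 the levels were 140.0, 105, 129, 105 and 119.9 CPM in knockout, against 123, 134, 123, 132 and 77.4 CPM in wild-type replicates. Wild-type replicate 5 was the lowest library for all 3 genes, and the other libraries of the groups overlapped.

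**Figure D3:**
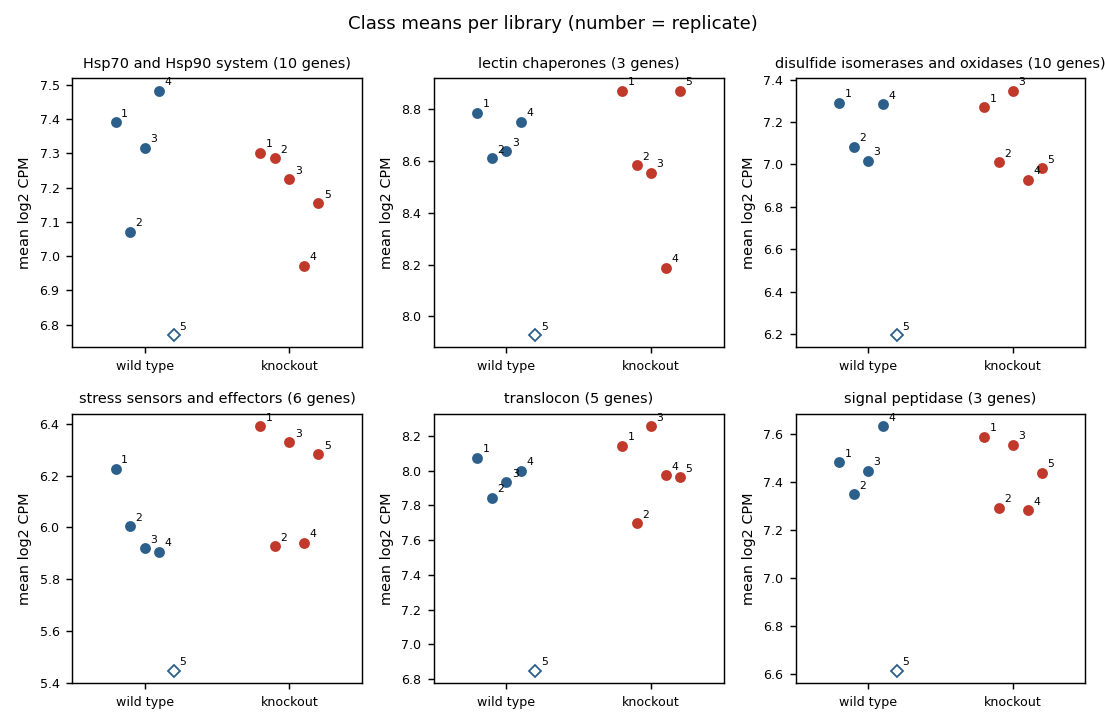
Mean log2 CPM of each of the 6 classes (y axis, own scale per panel) in every library, numbered by replicate, with wild-type replicate 5 as an open diamond. That library is the lowest in all 6 panels, and the other libraries of the groups overlap in every panel.

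Wild-type replicate 5 lay below all 9 other libraries for 28 of the 37 members and above all of them for 2, Dnajb9 and Pdia5. Its median level was 60.3% of the median of the other libraries, and for the translocon 32.6%. These levels rest on its TMM factor of 0.588: per unscaled library size it lay below the others for 34 members and above them for 0. Its counts from the 37 members made up 0.342% of the library against 1.00% to 1.44% elsewhere. Positions of this library were not counted over all genes, so these counts cannot be read as particular to the members. The part that the low luminal and high muscle markers of wild-type replicate 5 have in these levels was not tested.

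Among the other 9 libraries the members varied more within knockout than within wild type for 26 of 37, with median coefficients of variation of 17.7% and 10.8%. The names of these 4 wild-type libraries hold 2 leading numbers, each shared by 2 libraries, and those of the 5 knockout libraries hold 4, so the spreads may not be over equally separate samples. Spreads and the highest and lowest libraries were not counted over all genes, so they cannot be read as particular to the members. Knockout replicate 4 was the lowest library for 14 members, among them Canx, Hyou1 and Ern1, and wild-type replicate 2 for 7. Knockout replicate 1 was the highest for 12 members, wild-type replicate 4 for 11 and knockout replicate 3 for 7. Milk secretion markers took 3.06% of counts in knockout replicate 4, against 0.611% to 2.07% in the other 8, and skeletal muscle markers 0.141% against at most 0.0145%. Fibroblast markers took 0.328% to 0.759% of counts in knockout and 0.0154% to 0.596% in wild-type replicates 1 to 4. Proliferation markers took 0.0401% to 0.0857% in knockout and 0.0895% to 0.124% in those wild-type libraries, with no overlap. The part of these markers in the member values was not tested. Plasma and B cell markers took 0.000386% to 0.00554% of counts in the 9 libraries and 0.0133% in wild-type replicate 5. Of these 10 markers 4 were at 0 in at least 1 library, and the others, with Jchain, Igkc and Mzb1 of plasma cells among them, were counted in every library. Their part in the member values was not tested.

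**Figure D4:**
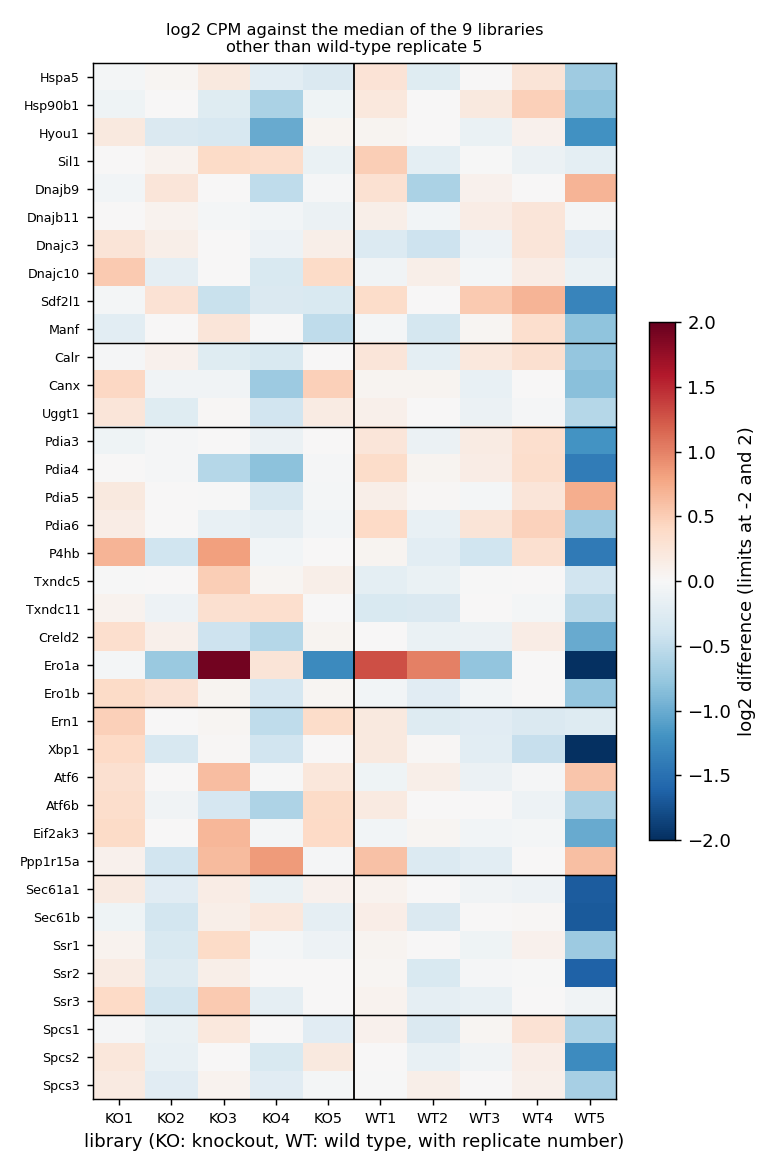
Log2 CPM of each member (rows, by class) in each library (columns) against its median over the 9 libraries other than wild-type replicate 5; red is higher and blue lower, with colours limited at -2 and 2. Wild-type replicate 5 is blue for most rows, knockout replicate 4 is blue for many chaperone rows, and Ero1a changes most from library to library.

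Per kilobase of exon, using GENCODE M21 lengths, P4hb (518 CPM per kb over the 9 libraries), Xbp1 (504) and Calr (467) were the most abundant members, followed by Pdia3 (348) and Hspa5 (299). The sensors lay near the bottom: Eif2ak3 at 7.99, Atf6 at 5.49 and Ern1 at 3.37 CPM per kb, the last of the 37. These lengths are of another annotation than the counts, so only wide gaps in this order can be read.

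Grouped by the promoter element, the 8 members with an ERSE printed above had a median log2 fold change of -0.07 without wild-type replicate 5 (3 higher, 5 lower), and the 22 members with a promoter window but no ERSE match had 0.01 (12 higher, 10 lower). With all libraries the medians were 0.05 and 0.12. Of the 8, only Hsp90b1 had an unadjusted p under 0.05, and none was called. Sdf2l1 and Pdia4, the members with the lowest fold changes without wild-type replicate 5, had no match to these letters in their windows. The part of the element in the fold changes was not tested.

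Other genes of the pathway were read from 3 lists, and none of their members was called in either comparison. Of 16 tested genes of translocation and the signal recognition particle, 12 were higher and 4 lower in knockout without wild-type replicate 5 (median 0.12), and 0 had an unadjusted p under 0.05. Sec62 and Sec63, which help Sec61 take in finished chains, had log2 fold changes of 0.21 ± 0.09 and 0.22 ± 0.11. Sec61g, the third channel subunit, had 0.27 ± 0.18 and Srp14, a signal recognition particle subunit, -0.17 ± 0.09. Of 38 other folding genes 23 were higher and 15 lower (median 0.07). At an unadjusted p under 0.05, 2 of the 38 were higher and 0 lower, beside the 5.74% and 5.85% of all genes given above, and with all libraries 2 were higher and 1 lower, beside 2.56% and 4.44%. The lower gene was Cdnf, which held 42.6 CPM in wild-type replicate 5 against 0.581 to 1.39 CPM elsewhere.

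The 2 folding genes higher without wild-type replicate 5 were Qsox1, a sulfhydryl oxidase of the Golgi and secreted space, and Sdf2, a relative of Sdf2l1. Qsox1 stood at 305, 188, 312, 240.4 and 275 CPM in knockout and at 158, 204, 147, 149 and 65.6 CPM in wild-type replicates. Only knockout replicate 2 lay within the wild-type range, and the log2 fold change was 0.70 ± 0.16 without wild-type replicate 5 and 0.87 ± 0.27 with it (edgeR adjusted p = 0.279 and 0.669). Sdf2 stood at 83.4 ± 6.57 CPM in knockout, against 71.0 ± 3.04 CPM in wild type (SD, n = 5 each), with no overlap (edgeR adjusted p = 0.669, and 0.330 without wild-type replicate 5). Of the 38 folding genes it was the only gene whose groups did not overlap, with or without wild-type replicate 5. Of all genes, 1.99% and 5.44% did not overlap in these comparisons. Sdf4 and Kdelr3, a retrieval receptor for ER residents, had log2 fold changes of 0.22 ± 0.11 and 0.58 ± 0.31.

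Of 20 other regulators of the stress response 10 were higher and 10 lower (median 0.02). At an unadjusted p under 0.05, 1 of the 20 was higher and 3 were lower, beside 5.74% and 5.85% of all genes, and with all libraries 0 were higher and 3 lower, beside 2.56% and 4.44%. Without wild-type replicate 5 the groups did not overlap for 1 higher and 3 lower of the 20, beside 2% and 3.44% of all genes. With all libraries they did not for 0 higher and 1 lower, Nfyb, beside 0.807% and 1.18%. Eif2s1, which encodes eIF2 alpha, the target of PERK, stood at 122, 112, 94.4, 95.5 and 115 CPM in knockout and at 163, 143, 142, 139 and 105 CPM in wild-type replicates. The groups did not overlap once wild-type replicate 5 was left out, and the log2 fold change was then -0.43 ± 0.10 (edgeR adjusted p = 0.279). Nfyb and Nfyc, subunits of the NF-Y factor that binds the CCAAT box within the ERSE, had -0.21 ± 0.09 and -0.27 ± 0.09 (edgeR adjusted p = 0.421 and 0.330). Wfs1, which encodes the ER membrane protein wolframin, had 0.25 ± 0.10 without wild-type replicate 5 (adjusted p = 0.404) and -0.45 ± 0.42 with it, since that library held 71.4 CPM against 16.8 to 22.1 CPM elsewhere.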

How the data were processed

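Libraries were poly(A)-selected and stranded, per the labels' protocols. The authors deposited raw read counts per Ensembl gene, 1 column for each of the 10 libraries and not normalized. FastQC, STAR, featureCounts, DESeq2 and the build GRCm39 are listed in the submitters' processing notes. Their versions, the annotation release and the strand setting of the counting were not given in the sources used here. Exons of other genes overlap those of some members (in GENCODE M21, 16.3% of the Spcs1 length, 12.8% of Ssr2, 10.3% of Hsp90b1, 8.16% of Sec61a1, 8.05% of Eif2ak3), so their counts could include or have lost shared reads. Ero1a and Ero1b were matched by older names. Library names begin with the same number in 3 pairs, and the labels do not say what it marks. Every pair of libraries of a group differed by more than sampling noise: the lowest chi-square was 20.8 times its degrees of freedom. That was for wild-type replicates 3 and 4, which share a leading number. Knockout replicates 3 and 4 and wild-type replicates 1 and 2, which also share such a number, stood at 98.8 and 169.9.

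The comparison of knockout and wild type was fitted with edgeR 4.0.16 under R 4.3.3 (filterByExpr, TMM, quasi-likelihood F-test with robust dispersions, Benjamini-Hochberg adjustment over all genes). Standard errors are the fold change divided by the square root of F. Class means use log2 CPM with a prior count of 2. Counting depth was 25.7 to 43.3 M per library. Alternatives were RLE and upper quartile scaling, DESeq2 1.42.0, limma-voom 3.58.1 with sample quality weights, no filter, at least 10 counts in every library, sums per leading number, that number as a block, and leaving out each library. Members and lists were chosen with earlier results of these data known. Values in every library are given for Rhbdd1, 6 chosen members (Hspa5, Hsp90b1, Xbp1, Ern1, Atf6, Eif2ak3) and the 3 members of each class with the smallest p without wild-type replicate 5; other pathway lists name up to 4 genes by smallest p, with all library values for those singled out. Srpra had no match. Promoter sequences are RefSeq's, on GRCm38.p6, not the build of the counts.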

Additional observations from a re-analysis of the deposited data

Results flagged for a closer look

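For each member and group, the highest or lowest library was set against the gap to its nearest neighbour by Dixon's test at the 95% level. The wild-type group was checked both with and without wild-type replicate 5, and 12 of the 111 checks stood out. Chance gives about 1 in 20 for a single check, but these checks share libraries and are not independent. Ern1 in wild-type replicate 1 stood out in both wild-type checks. Wild-type replicate 5 was the low library in 6: Hyou1 at 81.6 CPM (others 172 to 202), Pdia4 at 94.0 (258 to 321), Eif2ak3 at 20.02 (38.7 to 41.6), Sec61a1 at 55.0 (163 to 184), Ssr1 at 217 (340.0 to 381) and Spcs3 at 77.4 CPM (123 to 134). Wild-type replicate 1 was high for Sil1 at 57.4 CPM (35.6 to 40.6) and for Ern1 at 29.3 CPM, or 30.8 CPM (22.3 to 23.4) when scaled without wild-type replicate 5. Knockout replicate 3 was high for Txndc5 at 256 CPM (181 to 196) and Ero1a at 480 CPM (52.2 to 151). Wild-type replicate 2 was low for Ssr2 at 254 CPM (314 to 324), scaled without wild-type replicate 5.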

How the results depend on the processing

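With all libraries, 0 members were called in 8 other settings and with each of 10 libraries left out; without wild-type replicate 5, 0 were called in 8 settings and with each of the remaining 9 left out. The median fold change of members ran from 0.01 to 0.18 and from -0.01 to 0.08. The number of members at an unadjusted p under 0.05 was 1 with all libraries, where 7% of all genes passed. It was 2 with RLE scaling (6.99% of all genes) and 8 with limma-voom quality weights (18.7% of all genes). Those weights put 20 of 37 members above 0 in place of 26. The number was 0 with no low-count filter (5.35% of all genes), with sums per leading number (4.94%) and with that number as a block (1.68%). It ran from 0 to 5 when 1 library was left out, where 3.27% to 11.6% of all genes passed, 5 being the value without wild-type replicate 5. In the comparison without that replicate the number was 5, where 11.6% of all genes passed. It was then 10 with limma-voom quality weights (18.5% of all genes), 0 with sums (4.95%) and 2 with the block (6.18%). When a further library was left out it was 2 to 7, where 8.48% to 13.1% of all genes passed. With wild-type replicate 4 also left out, no member was lower at that p. With knockout replicate 1 or 3 or wild-type replicate 1 or 2 left out in its place, no member was higher. The cause of these shifts was not tested. The block put 32 of 37 members above 0 with all libraries, in place of 26. Among the 20 members given in every library, these changed sign. With all libraries, Hspa5 (-0.01) was 0.023 with upper quartile scaling, 0.0029 with no filter, 0.0052 with at least 10 counts in every library, 0.088 with sums and 0.12 with the block. Calr was 0.064 with sums and 0.097 with the block, Pdia6 0.0061 and 0.033, and Pdia4 0.057 with the block. Limma-voom quality weights gave -0.052 for Spcs3 and -0.17 for Spcs1. With 1 library left out, values ran from -0.12 to 0.084 for Hspa5, -0.052 to 0.15 for Spcs1 and -0.075 to 0.077 for Spcs3. Without wild-type replicate 5, Uggt1 was -0.011 with no filter, and leaving out a further library gave -0.063 to 0.086 for Uggt1, -0.034 to 0.24 for Canx, -0.15 to 0.043 for Spcs1, -0.0094 to 0.12 for Spcs2 and -0.046 to 0.19 for Xbp1. No paired analysis was possible because the labels give the groups no shared replicate numbers; the leading number links libraries within a group only.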
